A study of Mus musculus with 12 samples.

Results

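Amino acid transporter genes of the SLC1, SLC3, SLC6, SLC7, SLC36, SLC38 and SLC43 families were described in B16F10 cells, an established mouse melanoma line, after knockout of the paralogous histone acetyltransferases Ep300 and Crebbp. The members were the protein-coding genes whose mouse symbol begins with Slc, the number of 1 of these families, the letter a and a digit. The rule took 64 of the 54752 genes in the deposited count table. Of these, 32 passed the filter on low counts and were tested. It took 63 transporters and Slc7a6os, which overlaps in name only and is not a transporter.

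RNA sequencing covered 12 libraries in 4 groups of 3: Ep300 knockout, Crebbp knockout, double knockout of both genes, and control cells with the wild-type genotype. All were grown in DMEM with 10% FBS, and the labels name no treatment. The labels give neither a clone nor a pool for the knockouts, and they do not say that the 3 libraries of a group came from separate cultures. What the p-values weigh is thus the spread among these libraries alone, and that spread may be technical.

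Cells take up amino acids through membrane carriers that differ in substrate and in what drives them. SLC3 heavy chains pair with SLC7 light chains into exchangers of large neutral, basic or cystine substrates. SLC1 carriers of glutamate and aspartate, SLC1 exchangers of small neutral amino acids and many SLC38 carriers depend on sodium. Some SLC36 carriers use protons, and SLC6 carriers use sodium, many of them with chloride. Many of these genes are known targets of ATF4, a transcription factor that is made when amino acids run short and that binds the C/EBP-ATF response element. In melanoma the family is known above all for cystine uptake by Slc7a11, glutamine uptake by Slc1a5 and leucine uptake by the pair of Slc3a2 and Slc7a5.

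Libraries held 64257251 to 85604243 counts, and the members took 0.19% to 0.245% of them. Levels are given as CPM, library-size normalised read counts after TMM scaling. Summed over the members, the level was 2079 ± 171 CPM in Ep300 knockout, 2358 ± 140 CPM in Crebbp knockout and 2058 ± 67 CPM in double knockout, against 2401 ± 132 CPM in control (SD, n = 3 each). A library stood apart within each of 3 groups: the sum was 2280 CPM in Ep300 knockout replicate 3 against 1980 in each of the other two, 2200 in Crebbp knockout replicate 3 against 2450 and 2430, and 2250 in control replicate 2 against 2490 and 2460. Ep300 transcript did not drop out in its knockout, with 85.1 ± 8.80 CPM in Ep300 knockout, 104 ± 12.4 CPM in Crebbp knockout and 148 ± 11.1 CPM in double knockout, against 94.4 ± 7.72 CPM in control, and it was higher in double knockout than in control (0.65 ± 0.10 on the log2 scale, adjusted p = 7.33e-05). Crebbp stood at 80.7 ± 11.9 CPM in Ep300 knockout, 34.5 ± 3.60 CPM in Crebbp knockout and 64.0 ± 6.13 CPM in double knockout, against 64.7 ± 7.00 CPM in control. Of the 3 knockout groups, only the libraries labelled Crebbp knockout were called lower than control in a targeted transcript (Crebbp, -0.91 ± 0.12 on the log2 scale, adjusted p = 0.000527). Gene-level RNA of the targets thus did not mark the libraries labelled Ep300 knockout or double knockout as lacking a target, and every group name used here is the name on the label. The 12 melanocyte lineage markers summed to 19200 to 19600 CPM in Ep300 knockout, 23700 to 24300 in Crebbp knockout and 9150 to 9460 in double knockout, against 25300 to 27200 in control. The 6 fibroblast markers summed to 13.9 to 18.8, 5.36 to 7.80 and 12.3 to 13.5 CPM in Ep300, Crebbp and double knockout, against 3.34 to 4.74 in control; Dcn, Lum, Col3a1 and Thy1 were at or near 0 in every group, and Col1a1 and Pdgfra made up the sum. The 7 immune markers summed to 2.23 to 7.21 CPM over all libraries, with Ptprc, Cd3e, Itgam and Adgre1 at or near 0, and endothelial and epithelial markers to at most 1.07 CPM. In bulk RNA, fewer cells of a kind and less RNA per cell cannot be told apart, and the part of these shifts in the results below was not tested.

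Promoter windows are shown for 3 members because these hold the C/EBP-ATF response element and because the double knockout of each stood above the sum of both single knockouts, as described further on. Windows from RefSeq (GRCm38.p6, 250 bases before to 50 after the start) were given for 46 of the 64 members and 22 of the 32 tested ones. The tested members without a window were not searched: Slc1a5, Slc38a1, Slc38a3, Slc6a15, Slc6a6, Slc6a7, Slc6a8, Slc7a3, Slc7a4 and Slc7a5. The element was searched as TGATGNAA on both strands, and it was found in 4 of the 46 members with a window (8.7%), 3 of them among the 22 tested (13.6%), and in 4.51% of all 27025 genes with a window. The sequences run 5′ to 3′ on the gene's strand from 250 bases before to 10 after the start, with the element in capitals. All 3 genes lie on the minus strand, at chr3:50443604-50443863 for Slc7a11, chr11:20332704-20332963 for Slc1a4 and chr14:54417935-54418194 for Slc7a7.
Slc7a11: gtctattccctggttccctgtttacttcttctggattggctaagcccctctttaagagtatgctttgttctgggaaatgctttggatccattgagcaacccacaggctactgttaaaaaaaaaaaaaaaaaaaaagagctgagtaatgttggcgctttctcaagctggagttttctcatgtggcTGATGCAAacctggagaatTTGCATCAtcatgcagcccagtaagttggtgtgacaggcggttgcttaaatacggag
Slc1a4: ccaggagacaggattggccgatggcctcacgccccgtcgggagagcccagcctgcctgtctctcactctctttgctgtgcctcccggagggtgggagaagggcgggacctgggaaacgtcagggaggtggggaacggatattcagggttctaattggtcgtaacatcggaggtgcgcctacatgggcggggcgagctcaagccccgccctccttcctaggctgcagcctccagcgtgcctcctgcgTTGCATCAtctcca
Slc7a7: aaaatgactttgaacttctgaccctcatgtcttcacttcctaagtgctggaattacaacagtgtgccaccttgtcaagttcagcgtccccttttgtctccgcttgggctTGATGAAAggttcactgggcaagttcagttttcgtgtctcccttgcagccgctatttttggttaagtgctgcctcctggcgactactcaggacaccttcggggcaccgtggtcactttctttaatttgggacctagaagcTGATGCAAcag
Counted from the start, the element of Slc7a11 begins at -66 on the gene's strand and at -47 on the opposite strand. In Slc1a4 it begins at -4 on the opposite strand. In Slc7a7 it begins at -141 and at -1 on the gene's strand. RefSeq has a second start of this gene, from which the same element given at -1 lies at -243. The match is a description of these letters and was not tied to binding of any factor. Other searched motifs were the cAMP response element TGACGTCA in 1 of the 46 members (2.17%, against 2.03% of all genes), the E-box CACGTG of MYC and MITF in 9 (19.6%, against 8.09%), the antioxidant element TGACNNNGC in 9 (19.6%, against 14.0%), and the interferon-stimulated response element in 0 (against 3.99%). Among the 22 tested members with a window, the counts in the same order were 1 (4.55%), 3 (13.6%), 6 (27.3%) and 0.

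Per kilobase of exon, B16F10 transporter RNA was concentrated in a few carriers of neutral and basic amino acids and taurine. In control the highest levels per kilobase were those of the heavy chain Slc3a2 (49.7 CPM per kb), the SNAT2 carrier Slc38a2 (49.5), the taurine carrier Slc6a6 (41.7), the leucine carrier Slc7a5 (31.6), the SNAT1 carrier Slc38a1 (25.9) and the arginine and lysine carrier Slc7a1 (21). These 6 genes held 66.8% of the summed level per kilobase of all members, and the top 10 held 83.6%. The cystine carrier Slc7a11 stood lower, at 5.27 CPM per kb in control. Exon length was the union of all annotated exons of a gene, 13922 bases for Slc7a11 and 17236 for Slc38a1. Level and rank per kilobase thus depend on the annotation, and which transcripts these cells express was not tested. At the other end, all 5 glutamate and aspartate carriers of SLC1 and all 3 monoamine carriers of SLC6 failed the filter.

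**Figure D1:**
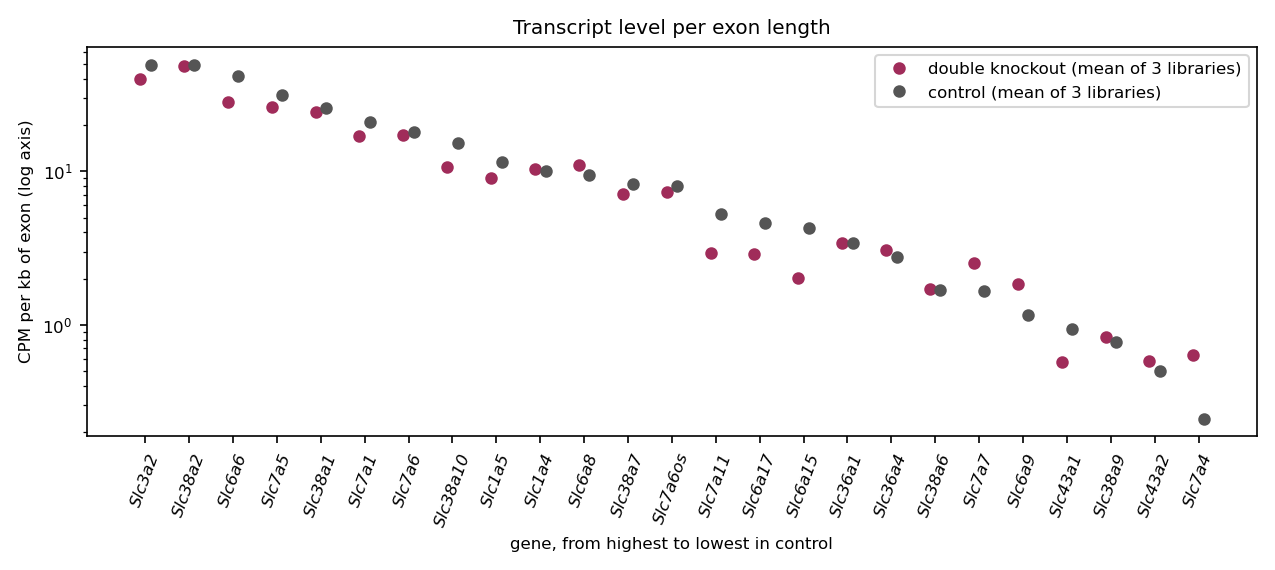
Mean level per kilobase of exon in double knockout (left point of each pair) and control (right point), n = 3 libraries each, on a log axis, for the members with a mean of at least 1 CPM over all 12 libraries, ordered by the control level. Slc3a2 and Slc38a2 lead at 49.7 and 49.5 CPM per kb in control, and the largest drops in double knockout are in Slc6a15, Slc7a11 and Slc43a1.

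The 32 members that did not pass had at most 0.152 CPM in any library (Slc7a14), and 6 of them had no count at all, which allows at most 0.0321 to 0.0525 CPM per library, taking 3 counts as the limit for counting error. Those without a count were Slc1a6, Slc38a11, Slc6a11, Slc6a14, Slc6a18 and Slc7a12. The others included Slc1a1, Slc1a2, Slc1a3, Slc1a7, Slc36a2, Slc36a3, Slc38a4, Slc38a5, Slc38a8, Slc43a3, Slc6a12, Slc6a13, Slc6a16, Slc6a19, Slc6a2, Slc6a20a, Slc6a21, Slc6a3, Slc6a4, Slc6a5, Slc7a10, Slc7a13, Slc7a14, Slc7a2 and Slc7a9. By family, 10 of 16 SLC7, 7 of 21 SLC6, 7 of 11 SLC38, 2 of 7 SLC1, 2 of 4 SLC36, 2 of 3 SLC43 and 2 of 2 SLC3 genes were tested.

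In the libraries labelled Ep300 knockout, the cystine carrier Slc7a11 fell most, to 26.2 ± 2.40 CPM against 73.3 ± 7.69 CPM in control (SD, n = 3), and the heavy chain Slc3a2, both neutral SLC1 exchangers, the arginine carrier Slc7a1, Slc38a10 and Slc6a15 also fell. Slc7a4 rose. In all, 1 of the 32 tested members was higher and 7 were lower at an adjusted p under 0.05 (25.0%), against 16.1% of all 18434 tested genes, of which 7.27% were higher and 8.83% lower. The median log2 fold change was -0.20 over the tested members and 0.01 over all tested genes.

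Slc7a11 is the light chain of the cystine and glutamate exchanger, which supplies cysteine for glutathione (ENSMUSG00000027737, chromosome 3, 49892526 to 50443614, minus strand, mm10). It stood at 24.2, 25.6 and 28.9 CPM in Ep300 knockout, 55.2, 52.3 and 52.2 CPM in Crebbp knockout and 37.9, 44.6 and 39.7 CPM in double knockout, against 78.3, 64.5 and 77.2 CPM in control. No group overlapped another, and the order from low to high was Ep300 knockout, double knockout, Crebbp knockout, control. Relative to control, the log2 change was -1.48 ± 0.09 in Ep300 knockout (SE, adjusted p = 1.19e-08), -0.46 ± 0.09 in Crebbp knockout (adjusted p = 0.011) and -0.85 ± 0.09 in the double knockout (adjusted p = 1.69e-06). The Crebbp knockout call was lost without Crebbp knockout replicate 2 (adjusted p = 0.0563) and without control replicate 3 (adjusted p = 0.0556).

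Slc3a2 encodes the heavy chain CD98hc, which carries Slc7a11, Slc7a5 and other light chains to the surface (chromosome 19, 8706882 to 8723369, minus strand). It stood at 133, 130 and 140 CPM in Ep300 knockout, 175, 171 and 177 CPM in Crebbp knockout and 136, 146 and 145 CPM in double knockout, against 181, 170 and 174 CPM in control. Ep300 and double knockout libraries all lay below every control library, while Crebbp knockout overlapped control. Log2 changes were -0.38 ± 0.06 in Ep300 knockout (adjusted p = 0.00035), -0.01 ± 0.06 in Crebbp knockout (adjusted p = 0.956) and -0.30 ± 0.06 in the double knockout (adjusted p = 0.000787). The other heavy chain, Slc3a1, which serves cystine and basic amino acid uptake in kidney, had 0.156 ± 0.0606 CPM in control and did not pass the test in any comparison.

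**Figure D2:**
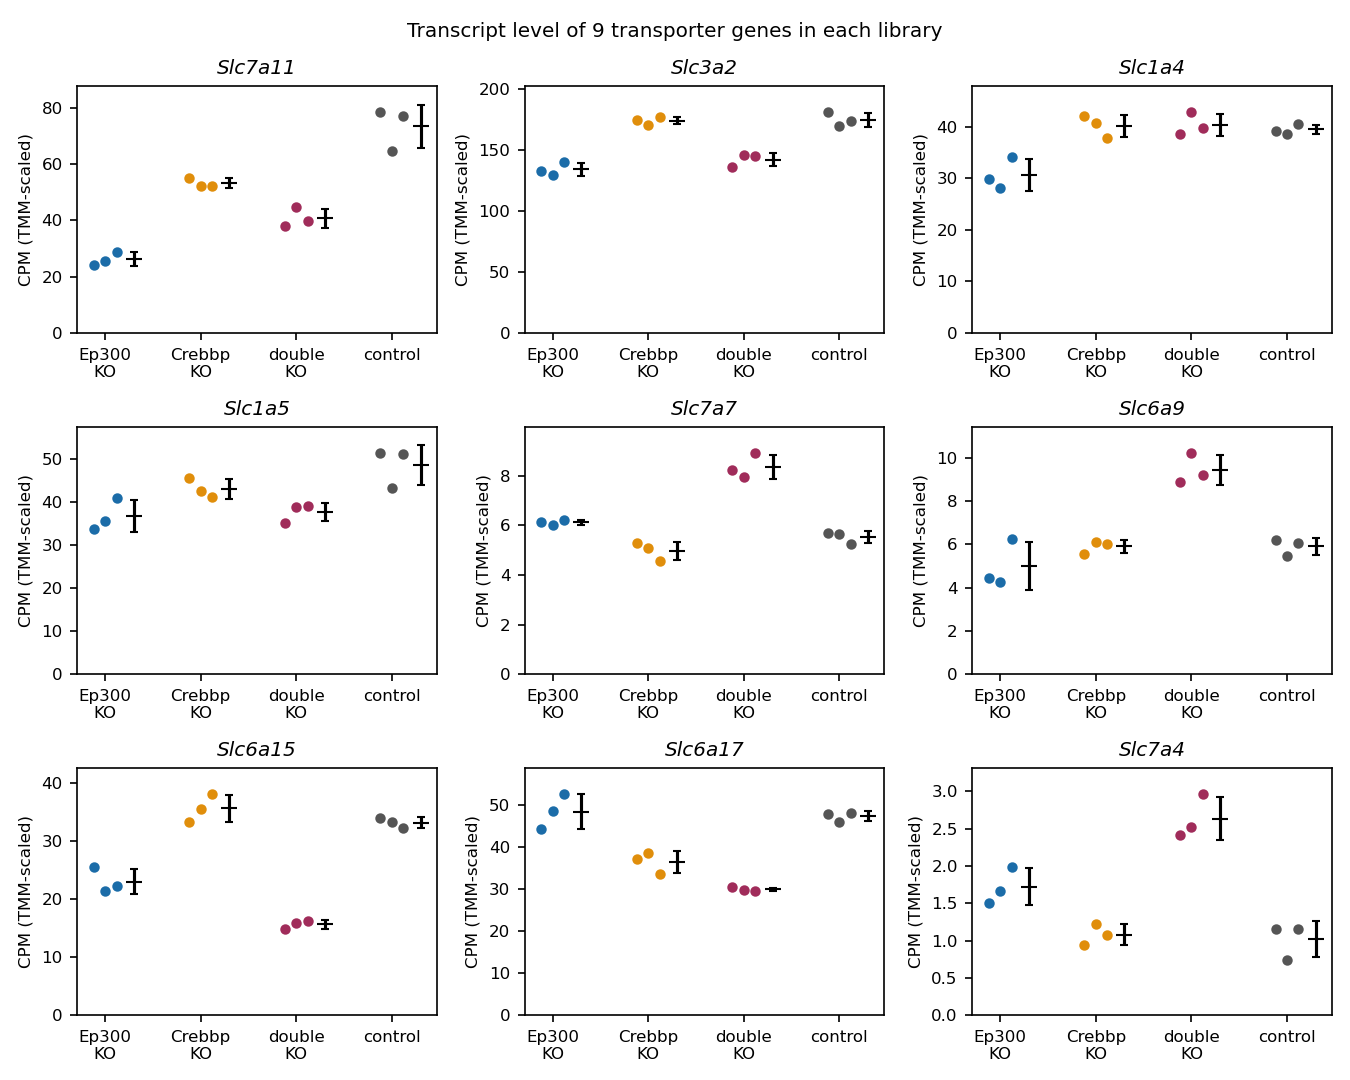
Level of 9 members in each library, in TMM-scaled CPM on linear axes that start at 0; points are single libraries in the order Ep300 knockout, Crebbp knockout, double knockout and control, and the bar beside each group gives the mean ± SD of 3 libraries. Slc7a11 is lowest in Ep300 knockout at 24.2 to 28.9 CPM, Slc1a4 is low in Ep300 knockout alone among these groups, and Slc7a7 and Slc6a9 are highest in double knockout.

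Both neutral SLC1 exchangers fell in Ep300 knockout. Slc1a4 (ASCT1, a carrier of serine, alanine and cysteine) stood at 29.8, 28.2 and 34.1 CPM in Ep300 knockout, 42.1, 40.7 and 37.8 CPM in Crebbp knockout and 38.7, 42.8 and 39.7 CPM in double knockout, against 39.3, 38.7 and 40.5 CPM in control. Ep300 knockout lay below the other 3 groups, which overlapped each other. Ep300 knockout changed it by -0.36 ± 0.08 on the log2 scale (adjusted p = 0.00337), while the value for double knockout was 0.03 ± 0.08 (adjusted p = 0.755) and that for Crebbp knockout 0.03 ± 0.08 (adjusted p = 0.895).

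Slc1a5 (ASCT2, the main glutamine exchanger of many tumour cells) stood at 33.7, 35.6 and 40.9 CPM in Ep300 knockout, 45.6, 42.5 and 41.0 CPM in Crebbp knockout and 35.1, 38.7 and 38.9 CPM in double knockout, against 51.2, 43.2 and 51.1 CPM in control. Ep300 and double knockout did not overlap control. Log2 changes against control were -0.40 ± 0.09 in Ep300 knockout (adjusted p = 0.00449), -0.17 ± 0.09 in Crebbp knockout (adjusted p = 0.327) and -0.37 ± 0.09 in the double knockout (adjusted p = 0.00264).

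The arginine carrier Slc7a1 (CAT1) stood at 178, 181 and 221 CPM in Ep300 knockout, 261, 257 and 228 CPM in Crebbp knockout and 195, 206 and 187 CPM in double knockout, against 254, 221 and 252 CPM in control. Replicate 3 of Ep300 knockout and replicate 2 of control met at 221 CPM. Its change of -0.33 ± 0.09 in Ep300 knockout (adjusted p = 0.0255) lost the call when Ep300 knockout replicate 1 (adjusted p = 0.0895) or 2 (0.112), or control replicate 1 (0.0941) or 3 (0.0897), was left out. In double knockout the change was -0.31 ± 0.09 (adjusted p = 0.0128), and it lost the call without double knockout replicate 3 (adjusted p = 0.057).

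The leucine carrier Slc7a5 (LAT1) stood at 83.9, 94.7 and 109 CPM in Ep300 knockout, 117, 114 and 103 CPM in Crebbp knockout and 94.6, 103 and 96.8 CPM in double knockout, against 125, 104 and 123 CPM in control. Its change was -0.29 ± 0.09 in Ep300 knockout, which missed the threshold by edgeR (adjusted p = 0.0508), and -0.26 ± 0.09 in double knockout, which passed (adjusted p = 0.0358). In Ep300 knockout it passed in 7 of 20 alternative settings, with an adjusted p of 0.0298 by DESeq2, 0.0467 by limma-voom, 0.01 with no filter on low counts, 0.00098 with length and GC offsets, 0.00753 without Ep300 knockout replicate 3, 0.0364 without Crebbp knockout replicate 3 and 0.0146 without control replicate 2. The call in double knockout was lost without double knockout replicate 1 (adjusted p = 0.116) or 3 (0.0927) and without control replicate 1 (0.123) or 3 (0.108).

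The most abundant glutamine and alanine carriers did not pass the test. Slc38a1 averaged 398 ± 42.3 CPM in Ep300 knockout, 464 ± 38.3 CPM in Crebbp knockout and 423 ± 17.8 CPM in double knockout, against 447 ± 33.2 CPM in control (SD, n = 3), and Slc38a2 averaged 406 ± 30.0, 450 ± 32.7 and 430 ± 15.1 CPM in the same knockouts, against 437 ± 19.8 in control. The log2 change against control lay between -0.17 and 0.05 for Slc38a1 and between -0.11 and 0.04 for Slc38a2. With offsets for exon length and GC content, Slc38a1 was called lower in double knockout (-0.19, adjusted p = 0.0044).

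Slc38a10, a less studied member of the SNAT family, stood at 67.3, 76.1 and 84.2 CPM in Ep300 knockout, 93.7, 93.7 and 84.6 CPM in Crebbp knockout and 67.1, 72.0 and 67.3 CPM in double knockout, against 102, 94.1 and 98.4 CPM in control. All 3 knockout groups lay below every control library, but only Ep300 knockout (-0.37 ± 0.08, adjusted p = 0.00385) and double knockout (-0.51 ± 0.08, adjusted p = 7.97e-05) passed; Crebbp knockout had -0.11 ± 0.08 (adjusted p = 0.482).

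A pair of related SLC6 carriers of neutral amino acids, known mainly from neurons, behaved differently from each other. Slc6a15 stood at 25.5, 21.3 and 22.2 CPM in Ep300 knockout, 33.3, 35.5 and 38 CPM in Crebbp knockout and 14.8, 15.8 and 16.2 CPM in double knockout, against 34.0, 33.3 and 32.2 CPM in control. Double knockout lay lowest and Ep300 knockout between it and control, with changes of -1.09 ± 0.08 (adjusted p = 2.62e-08) in double and -0.53 ± 0.08 (adjusted p = 0.00017) in Ep300 knockout, and 0.10 ± 0.08 in Crebbp knockout (adjusted p = 0.526). Slc6a17 stood at 44.3, 48.5 and 52.5 CPM in Ep300 knockout, 37.1, 38.6 and 33.6 CPM in Crebbp knockout and 30.4, 29.7 and 29.6 CPM in double knockout, against 47.9, 46.0 and 48.1 CPM in control. Here Ep300 knockout overlapped control (0.03 ± 0.07, adjusted p = 0.825), and Crebbp knockout (-0.38 ± 0.07, adjusted p = 0.0109) and double knockout (-0.66 ± 0.07, adjusted p = 2.5e-06) fell. Between both single knockouts, Slc6a15 was lower in Ep300 than in Crebbp knockout (-0.63 ± 0.08, adjusted p = 4.16e-05) and Slc6a17 was higher (0.41 ± 0.07, adjusted p = 0.00105).

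Slc7a4, a relative of the cationic carriers, was the 1 member that rose in Ep300 knockout. It was expressed at a low level, with 1.5, 1.67 and 1.99 CPM in Ep300 knockout, 0.937, 1.22 and 1.08 CPM in Crebbp knockout and 2.41, 2.53 and 2.96 CPM in double knockout, against 1.16, 0.735 and 1.15 CPM in control. Every Ep300 and double knockout library lay above every control library. The change was 0.75 ± 0.19 in Ep300 knockout (adjusted p = 0.0123; 0.057 without Ep300 knockout replicate 3) and 1.36 ± 0.19 in the double knockout (adjusted p = 2.34e-05).

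In the libraries labelled Crebbp knockout, 2 of the 32 tested members were lower and 0 higher (6.25%), against 3.13% of all tested genes (1.52% higher, 1.61% lower), by the edgeR quasi-likelihood test. At an unadjusted p under 0.05, 1 was higher and 2 lower; DESeq2 called 1 higher and 2 lower, and limma-voom 0 and 2. They were Slc7a11 and Slc6a17, given above. The median log2 fold change was -0.03 over the tested members and -0.01 over all tested genes. Without Crebbp knockout replicate 2 or without control replicate 3, 1 of these calls was left, that of Slc6a17; with offsets for length and GC content there were 5 calls.

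In the libraries labelled double knockout, Slc6a15, Slc7a11, Slc43a1, Slc6a17, the taurine carrier Slc6a6, Slc38a10, Slc1a5, Slc7a1, Slc3a2 and Slc7a5 fell, and Slc7a4, Slc6a9, Slc7a7 and Slc6a8 rose. With 3 more that fell (below), 4 tested members were higher and 13 lower (53.1%), near the 49.4% of all tested genes (24.7% higher, 24.6% lower). The median log2 fold change was -0.08 over the tested members and -0.02 over all tested genes.

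**Figure D3:**
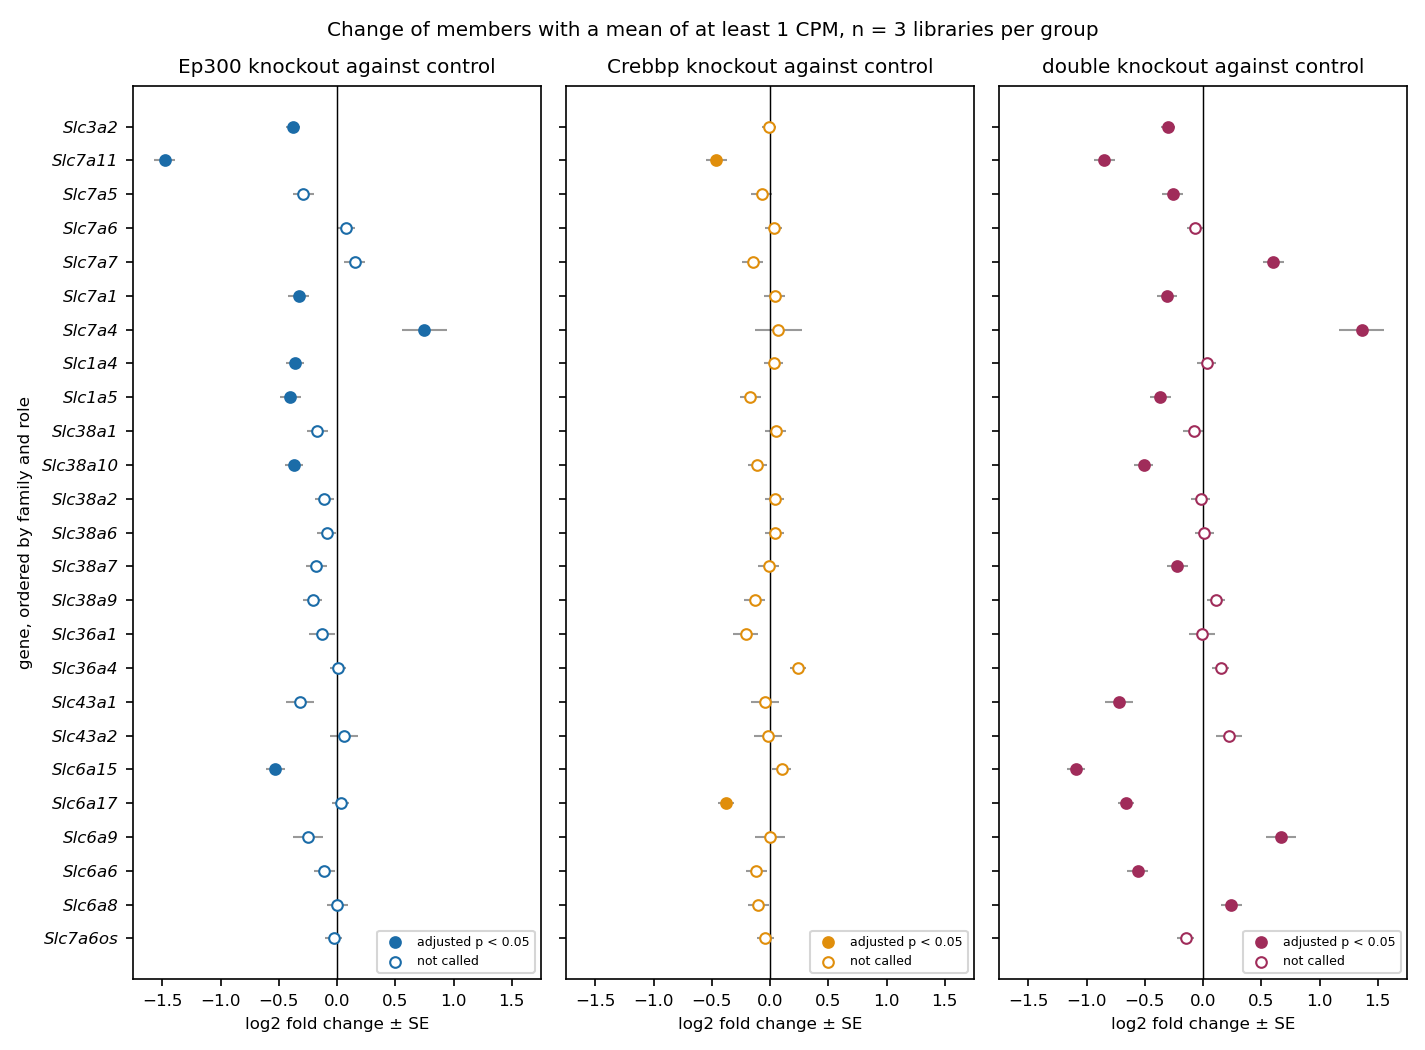
Log2 fold change ± SE against control of the members with a mean of at least 1 CPM, in Ep300 knockout (left), Crebbp knockout (middle) and double knockout (right), 3 libraries a group; filled points passed an adjusted p of 0.05. Slc7a11 is negative in every panel (-1.48 with Ep300 knocked out, -0.46 with Crebbp, -0.85 with both), and Slc7a4 reaches 1.36 in double knockout.

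Slc6a6, the taurine carrier, stood at 308, 305 and 366 CPM in Ep300 knockout, 340, 343 and 289 CPM in Crebbp knockout and 238, 251 and 231 CPM in double knockout, against 370, 328 and 361 CPM in control. Double knockout lay below every library of the other groups, with -0.56 ± 0.09 against control (adjusted p = 0.000135). Changes in Ep300 knockout (-0.11 ± 0.09, adjusted p = 0.479) and Crebbp knockout (-0.12 ± 0.09, adjusted p = 0.511) did not pass.

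Slc43a1 (LAT3, a carrier of branched-chain amino acids and phenylalanine) stood at 4.25, 4.41 and 4.25 CPM in Ep300 knockout, 4.83, 5.14 and 5.65 CPM in Crebbp knockout and 3.44, 2.87 and 3.47 CPM in double knockout, against 4.42, 6.00 and 5.70 CPM in control. It was lowest in double knockout, with -0.72 ± 0.12 against control (adjusted p = 0.000228). Its relative Slc43a2 (LAT4) had 5.84 ± 0.274 CPM in double knockout and 5.02 ± 0.577 CPM in control, a change of 0.22 ± 0.11 that did not pass (adjusted p = 0.134).

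Slc6a9, the glycine carrier GlyT1, stood at 4.43, 4.25 and 6.26 CPM in Ep300 knockout, 5.55, 6.12 and 6.03 CPM in Crebbp knockout and 8.88, 10.2 and 9.21 CPM in double knockout, against 6.18, 5.47 and 6.06 CPM in control. Double knockout lay above every other library, with 0.67 ± 0.13 against control (adjusted p = 0.00046). Slc7a7, the light chain y+LAT1 that exchanges basic for neutral amino acids, stood at 6.13, 6.01 and 6.24 CPM in Ep300 knockout, 5.29, 5.08 and 4.56 CPM in Crebbp knockout and 8.23, 7.97 and 8.91 CPM in double knockout, against 5.68, 5.67 and 5.24 CPM in control. It too was highest in double knockout, with 0.60 ± 0.09 against control (adjusted p = 5.04e-05).

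Slc6a9 and Slc7a7 each overlap a gene on the other strand, and the strand setting of the counting is not given in the sources used here, so reads of the partners cannot be told apart from theirs with certainty. The partner of Slc6a9, the galactosyltransferase B4galt2, rose in double knockout by a similar log2 amount (0.67 ± 0.12, adjusted p = 0.000209) and also in Ep300 knockout (0.45 ± 0.12, adjusted p = 0.0143), where Slc6a9 had -0.25 ± 0.13 (adjusted p = 0.251). The partner of Slc7a7, the mitochondrial insertase Oxa1l, had 0.10 ± 0.09 in double knockout (adjusted p = 0.395).

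The creatine carrier Slc6a8 stood at 44.0, 48.4 and 55.5 CPM in Ep300 knockout, 48.5, 47.9 and 41.7 CPM in Crebbp knockout and 57.9, 60.1 and 56.1 CPM in double knockout, against 51.4, 44.6 and 51.6 CPM in control. Its change in double knockout was 0.24 ± 0.09 (adjusted p = 0.0378). It was 0.02 (adjusted p = 0.688) with offsets for length and GC content, and the call was lost without any 1 double knockout library (adjusted p = 0.0524 to 0.113) and without control replicate 2 (0.146).

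The other 3 called in double knockout fall outside the rule for named genes and were chosen after their values were seen. The lysosomal glutamine carrier Slc38a7 averaged 29.4 ± 1.03 CPM in double knockout and 34.4 ± 3.65 in control (-0.22 ± 0.09, adjusted p = 0.0469). The light chain Slc7a8 (LAT2) averaged 0.680 ± 0.108 and 0.966 ± 0.141 CPM in double knockout and control (-0.51 ± 0.20, adjusted p = 0.0438). The proline carrier Slc6a7 had 1, 2 and 3 counts in the double knockout libraries, against 13, 6 and 9 in control (adjusted p = 0.0143), and at these counts no fold change is given.

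Set against each other, the single knockouts differed in 11 of the 32 tested members (34.4%), with 3 higher and 8 lower in Ep300 than in Crebbp knockout, against 13.6% of all tested genes (6.26% higher, 7.37% lower). The lower ones included Slc7a11 (-1.02 ± 0.09, adjusted p = 1.19e-06), Slc6a15, Slc1a4 (-0.39 ± 0.08, adjusted p = 0.00256), Slc3a2 (-0.37 ± 0.06, adjusted p = 0.000555) and Slc7a1 (-0.36 ± 0.09, adjusted p = 0.0163). The higher ones were Slc6a17, Slc7a4 (0.68 ± 0.19, adjusted p = 0.0262) and Slc7a7 (0.30 ± 0.09, adjusted p = 0.0383). The count fell to 5 without Ep300 knockout replicate 2, to 6 without Crebbp knockout replicate 1 or 2, and to 6 when only these groups were fitted. Slc7a7 lost its call in 12 of 20 alternative settings (adjusted p up to 0.125), Slc7a4 without Ep300 knockout replicate 2 or 3 or Crebbp knockout replicate 1 or 3 (0.0565 to 0.113), and Slc7a1 without Ep300 or Crebbp knockout replicate 1 or 2 (0.062 to 0.0813).

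Double knockout was also set against each single knockout. Against Ep300 knockout, 6 tested members were higher and 4 lower (31.2%), against 34.6% of all tested genes (18.0% higher, 16.6% lower). Slc6a9 (0.92 ± 0.13, adjusted p = 8.42e-05), Slc7a11 (0.63 ± 0.09, adjusted p = 0.000101), Slc7a4 (0.61 ± 0.17), Slc7a7 (0.45 ± 0.09), Slc1a4 (0.40 ± 0.08) and the lysosomal arginine sensor Slc38a9 (0.32 ± 0.08, adjusted p = 0.00926) were higher. Slc6a17 (-0.70 ± 0.07), Slc6a15 (-0.56 ± 0.08), Slc6a6 (-0.44 ± 0.09) and Slc43a1 (-0.40 ± 0.12, adjusted p = 0.0223) were lower. The call of Slc7a4 was lost without Ep300 knockout replicate 1 (adjusted p = 0.0603) or 2 (0.0523) or double knockout replicate 3 (0.0659), and that of Slc43a1 without Ep300 knockout replicate 2 (0.0731) or double knockout replicate 2 (0.111).

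Against Crebbp knockout, 6 tested members were higher and 10 lower in double knockout (50%), against 43.2% of all tested genes (21.4% higher, 21.8% lower). Only called members with a mean of at least 1 CPM over all libraries were ranked, and called members under that level were left out. Among those ranked, Slc7a4 (1.29 ± 0.18), Slc7a7 (0.75 ± 0.09), Slc6a9 (0.68 ± 0.13), Slc6a8 (0.33 ± 0.09) and Slc38a9 (0.23 ± 0.08, adjusted p = 0.0351) led the higher ones. Slc6a15 (-1.19 ± 0.08), Slc43a1 (-0.67 ± 0.12), Slc6a6 (-0.43 ± 0.09), Slc38a10 (-0.40 ± 0.08) and Slc7a11 (-0.39 ± 0.09) led the lower ones. Slc38a9 lost its call in 7 of 20 alternative settings. These were the fits without Crebbp knockout replicate 3 (adjusted p = 0.159) and without any 1 double knockout library (0.0678 to 0.0967). The others were no filter on low counts (0.0504), the replicate number as a block (0.0563), and offsets for length and GC content (0.0569).

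Slc7a11, Slc1a4, Slc7a7, Slc6a9 and Slc38a9 stood higher in the libraries labelled double knockout than the changes of both single knockouts add up to. The direction rests on the labels, since Crebbp RNA in double knockout was 64.0 CPM, against 64.7 CPM in control, and Ep300 RNA was not called lower in either group labelled with its knockout. The value tested was the log2 change in double knockout minus the sum of both single knockout changes. The test called 5 members higher and 1 lower, Slc6a15, at an adjusted p under 0.05 (18.8% of the 32 tested), against 10.3% of all tested genes (5.33% higher, 4.96% lower). Among the called members Slc7a11 had the largest value, 1.1 ± 0.13 (adjusted p = 7e-05): double knockout differed from Ep300 knockout by 0.63 ± 0.09, and Crebbp knockout from control by -0.46 ± 0.09. The low-level cationic carrier gene Slc7a3, which falls outside the rule for named genes, had 1.4 ± 0.57 and did not pass (adjusted p = 0.133).

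For Slc6a9 the value was 0.92 ± 0.18 (adjusted p = 0.00495), from 0.92 ± 0.13 in double against Ep300 knockout and 0.00 ± 0.13 in Crebbp knockout against control; its overlapping partner B4galt2 had 0.01 ± 0.16 (adjusted p = 0.99). For Slc7a7 it was 0.60 ± 0.13 (adjusted p = 0.00708), and its partner Oxa1l had -0.05 ± 0.13 (adjusted p = 0.851). Slc38a9 (0.44 ± 0.12, adjusted p = 0.0289) and Slc1a4 (0.37 ± 0.11, adjusted p = 0.0401) passed narrowly. Slc38a9 lost the call in 8 and Slc1a4 in 10 of 19 alternative settings, with adjusted p-values up to 0.0821 and 0.114. Slc6a15 had -0.66 ± 0.11 (adjusted p = 0.0015), so its change in double knockout lay below the sum of its changes in both single knockouts. Of these, the change in Crebbp knockout was 0.10 ± 0.08 and not called. Of the 5 called higher, the promoter windows of Slc7a11, Slc1a4 and Slc7a7 hold the C/EBP-ATF element printed above, and those of Slc38a9 and Slc6a9 do not. Slc6a15, called lower, had no window and was not searched. Among the tested members with a window, 3 of 22 hold the element (13.6%), against 4.51% of all genes with a window. The 3 windows were shown because of this match, and a link between the element and the change was not tested.

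**Figure D4:**
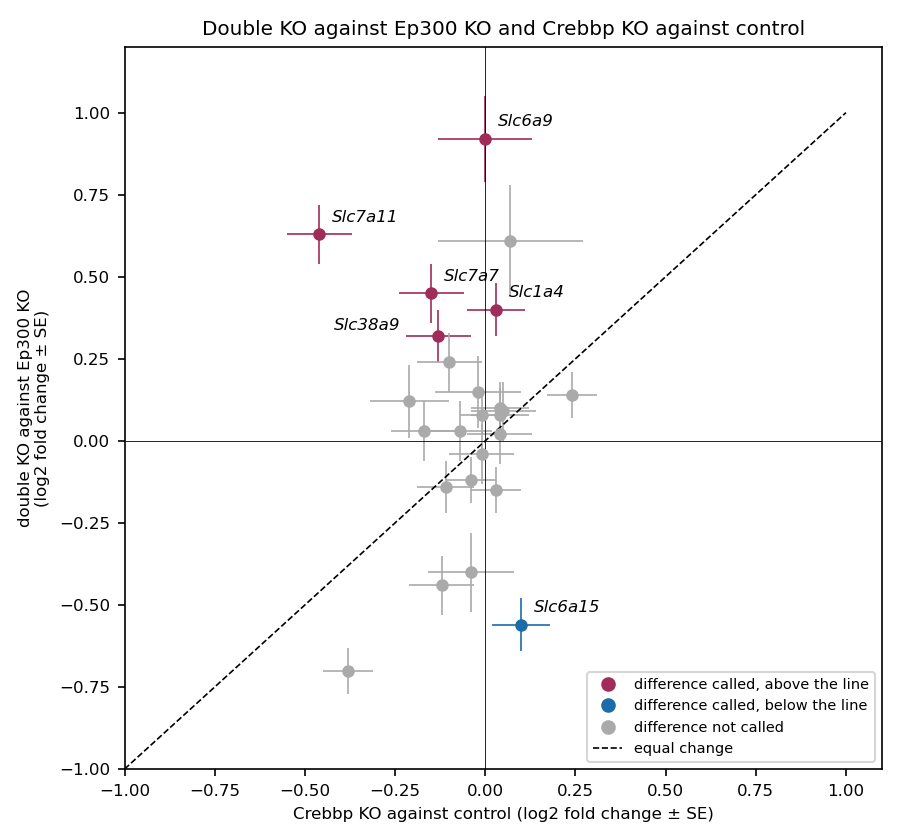
Log2 fold change ± SE in double knockout against Ep300 knockout (vertical axis) and in Crebbp knockout against control (horizontal axis), by the labels, for the members with a mean of at least 1 CPM; the dashed line marks equal change. Slc7a11 lies at 0.63 and -0.46, and Slc6a15, at -0.56 and 0.10, is the 1 called member under the line.

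Other genes of amino acid metabolism moved as follows, in lists that share some genes with each other (Asns stands in the stress and the synthesis list, for example) but none with the transporters above. Of 27 tested genes of ATF4 and the integrated stress response, 2 were higher and 14 lower in Ep300 knockout (59.3%, against 16.1% of all tested genes), 0 and 2 in Crebbp knockout (7.41%, against 3.13%), and 10 and 10 in double knockout (74.1%, against 49.4%). The list's median log2 change was -0.31 in Ep300 knockout, and it was -0.02 and 0.00 when Crebbp alone or both genes were labelled knocked out. Atf4 itself averaged 268 ± 11.7 CPM in Ep300 knockout, 355 ± 26 CPM in Crebbp knockout and 293 ± 4.64 CPM in double knockout, against 376 ± 15.3 CPM in control, a change of -0.49 ± 0.07 in Ep300 knockout (adjusted p = 0.000168). In Ep300 knockout the pseudokinase Trib3 (-0.65 ± 0.07, adjusted p = 8e-06) and the stress protein gene Herpud1 (-0.62 ± 0.07, adjusted p = 5.52e-06) fell. In double knockout the stress-induced factor Atf3 (2.13 ± 0.07, adjusted p = 4.56e-12) and the phosphatase subunit Ppp1r15a (1.36 ± 0.09, adjusted p = 1.31e-08) rose while Herpud1 fell (-0.76 ± 0.07, adjusted p = 1.9e-07).

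Against the sum of both single knockouts, 14 of these 27 genes were higher in double knockout and 0 lower by edgeR, DESeq2 and limma-voom alike. By edgeR that is 51.9% of the list, against 10.3% of all tested genes called (5.33% higher), and the median was 0.43, beside 0.00 over all tested genes. At an unadjusted p under 0.05, edgeR gave 14 and 0, DESeq2 15 and 1, and limma-voom 15 and 0. Leaving out 1 library at a time left 13 or 14 higher and 0 or 1 lower. They included Atf3 (1.81 ± 0.10), Atf5 (1.00 ± 0.09), Trib3 (1.00 ± 0.10) and Ddit3 (0.92 ± 0.10, adjusted p = 3.32e-05), the gene of the stress factor CHOP. Trib3 averaged 22.8 CPM in Ep300 knockout, 28.3 CPM in Crebbp knockout and 35.9 CPM in double knockout, against 35.8 CPM in control.

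Of 37 tested genes of amino acid synthesis and breakdown, 1 was higher and 18 lower in Ep300 knockout (51.4%, against 16.1% of all tested genes), 0 and 1 in Crebbp knockout (2.7%, against 3.13%), and 5 and 20 in double knockout (67.6%, against 49.4%). Glutamine synthetase Glul fell by 0.63 ± 0.06 in Ep300 knockout (adjusted p = 1.12e-06) and by 0.99 ± 0.06 in double knockout (adjusted p = 1.9e-09). Argininosuccinate synthase Ass1 fell by 0.90 ± 0.08 and 1.17 ± 0.09 in the same knockouts (adjusted p = 1.61e-06 and 2.64e-08). Of 38 genes of amino acid sensing by mTORC1 and GCN2, 2 were higher and 4 lower in Ep300 knockout (15.8%, near the 16.1% of all tested genes), 0 and 0 in Crebbp knockout (against 3.13%), and 15 and 10 in double knockout (65.8%, against 49.4%). The Rag GTPase gene Rragd, a known target of the MITF and TFE factors, fell by 0.82 ± 0.06 in Ep300 knockout (adjusted p = 1.08e-07) and by 1.19 ± 0.06 in double knockout (adjusted p = 4.41e-10). The arginine sensor Castor1 rose by 1.2 ± 0.12 in double knockout (adjusted p = 1.55e-06).

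Of 20 tested transporters of other families, 1 was higher and 4 lower in Ep300 knockout (25%, against 16.1% of all tested genes), 0 and 0 in Crebbp knockout (against 3.13%), and 6 and 7 in double knockout (65%, against 49.4%). The mitochondrial aspartate and glutamate carrier Slc25a13 fell by 0.36 ± 0.07 in Ep300 knockout (adjusted p = 0.00181) and by 0.57 ± 0.07 in double knockout (adjusted p = 7.74e-06), while its paralogue Slc25a12 rose by 0.41 ± 0.06 in double knockout (adjusted p = 4.65e-05). Of 7 tested partner proteins of the transporters, 2 were higher and 2 lower in Ep300 knockout (57.1%), 0 and 0 in Crebbp knockout, and 3 and 2 in double knockout (71.4%), against the same shares of all genes. Cd44, whose variant forms stabilize the Slc7a11 protein, averaged 445 CPM in Ep300 knockout, 730 CPM in Crebbp knockout and 390 CPM in double knockout, against 642 CPM in control. It fell by 0.53 ± 0.07 in Ep300 knockout (adjusted p = 4.25e-05) and by 0.72 ± 0.07 in double knockout (adjusted p = 4.94e-07). Myc, a known activator of glutamine and leucine carriers, fell by 0.49 ± 0.08 in Ep300 knockout (adjusted p = 0.000471) and by 0.66 ± 0.08 in double knockout (adjusted p = 7.89e-06).

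No gene of the sensing list, the other transporters or the partner proteins was called in Crebbp knockout by edgeR. At an unadjusted p under 0.05, 4 sensing genes, 3 other transporters and 2 partner proteins passed; DESeq2 called 0, 1 and 1 of them, and limma-voom 0 of each.

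**Figure D5:**
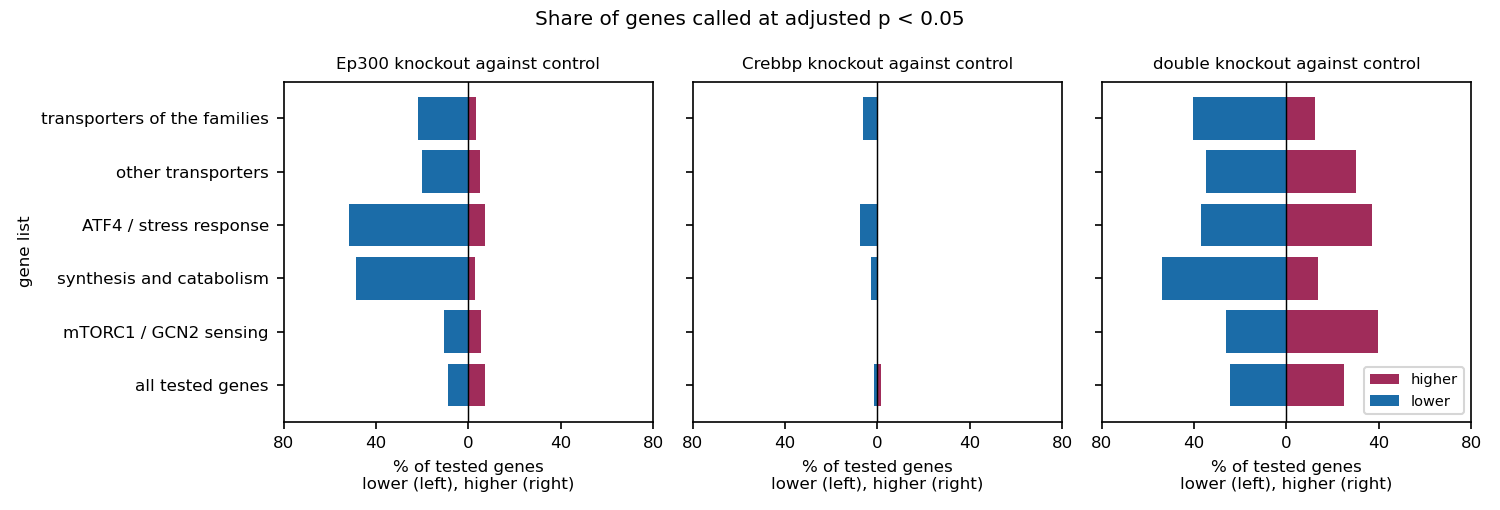
Share of tested genes called higher (right of 0) and lower (left of 0) at an adjusted p under 0.05 in Ep300, Crebbp and double knockout against control, in percent of the tested genes of each list. The 32 tested members are called at 25.0%, 6.25% and 53.1%, beside 16.1%, 3.13% and 49.4% of all 18434 tested genes.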

How the data were processed

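RNA was measured by sequencing in 12 libraries of B16F10 cells, 3 per group, taken from the labels. Per the labels, total RNA came from RNeasy Plus Mini extraction and libraries from a stranded mRNA kit (KAPA). The submitters' processing notes name bcl2fastq, HISAT2, HTSeq and mm10; versions, the strand setting of the counting and its annotation were not given in the sources used here. What was deposited is a table of the authors' raw counts per Ensembl gene, without normalization. GENCODE M21 gave symbols, biotypes, positions and exon lengths to 54723 of 54752 genes. No library was a duplicate of another: counts of replicates differed by far more than sampling noise.

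From the counts, filterByExpr left 18434 genes, and TMM scaled the libraries. The test was edgeR's quasi-likelihood F test in robust form, fitted to all 12 libraries with the group as the only term. Benjamini-Hochberg adjustment ran over all tested genes within a comparison, with a threshold of 0.05. SE were derived from F, with 3 libraries a group. A value called higher or lower passed this test. The scripts were tested on simulated data. The work used edgeR 4.0.16, DESeq2 1.42.0 and limma 3.58.1 in R 4.3.3. Limits from counts cover counting error only; the biological coefficient of variation was 9.46%.

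Named with statistics were, per knockout against control, up to 8 higher and 8 lower called members with the largest change and a mean of at least 1 CPM over all libraries (5 and 5 in other comparisons). Slc3a2, Slc7a5, Slc7a11, Slc7a1, Slc1a5, Slc1a4, Slc38a1, Slc38a2 and Slc38a9 were added throughout. Outside this rule, some members named in 1 comparison were also given in others, and Slc43a2 was given beside Slc43a1. The overlapping genes B4galt2 and Oxa1l were given too, as were members marked as outside the rule where they appear. Of each gene list up to 4 genes with the smallest adjusted p were allowed, and Atf4, Ddit3, Myc, Mitf, Ep300 and Crebbp. The members, lists and tests were chosen with earlier results of these data known. Comparisons that share control libraries are not independent of each other. Alternatives were DESeq2, limma-voom, DESeq2 size factors, no filter on low counts, 1 CPM in 3 libraries, the replicate number as a block, a fit of the compared groups alone, offsets by GC content and exon length, and omission of each library in turn. Replicate numbers did not pair the libraries and entered no main test. Some genes are not reported here by name.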

Additional observations from a re-analysis of the deposited data

Results flagged for a closer look

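In 6 members the change of double against Ep300 knockout differed from that of Crebbp knockout against control, by an interaction test in the edgeR fit, with the libraries taken as labelled. The difference on the log2 scale was 1.1 for Slc7a11, 0.92 for Slc6a9, 0.60 for Slc7a7, 0.44 for Slc38a9, 0.37 for Slc1a4 and -0.66 for Slc6a15. In double against Ep300 knockout the change was 0.63 ± 0.09 for Slc7a11, 0.92 ± 0.13 for Slc6a9, 0.45 ± 0.09 for Slc7a7, 0.32 ± 0.08 for Slc38a9, 0.40 ± 0.08 for Slc1a4 and -0.56 ± 0.08 for Slc6a15. In Crebbp knockout against control it was -0.46 ± 0.09, 0.00 ± 0.13, -0.15 ± 0.09, -0.13 ± 0.09, 0.03 ± 0.08 and 0.10 ± 0.08 in the same order of genes. Slc7a11 is the 1 of these whose change passed the test in both, with opposite sign. Slc38a9 lost its call in 8 and Slc1a4 in 10 of 19 alternative settings, most of these being fits without 1 library. Adjusted p-values of the edgeR fits rose to 0.0821 for Slc38a9 and 0.114 for Slc1a4.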

How the results depend on the processing

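Among 98 values of named members, 60 were called, and none of these 60 changed direction against its call under 20 alternatives. Of 1948 recomputed values 1853 kept their side of the threshold, 72 lost the call and 23 gained it, and 46 of the 60 calls were never lost. Slc7a1 in double against Ep300 knockout, 0.02 and not called, gained a call of opposite sign by edgeR with length and GC offsets (-0.15, adjusted p = 0.0194). The count of called members in Crebbp knockout was 5 with length and GC offsets, against 2, and 6 against 11 between the single knockouts when only these groups were fitted. The count of all genes called in Crebbp knockout was 577, and 1270 with no filter on low counts, 1265 with DESeq2, 257 with only the groups compared and 1435 with length and GC offsets; the cause was not tested.

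With the replicate number as a block this count was 321, and 7 calls of named members were lost, among them Slc7a1 in Ep300 knockout (adjusted p = 0.0582) and Slc7a5 in double knockout (0.063). The numbers did not pair the libraries: same-numbered libraries correlated at -0.17 to 0.11 in their deviations from the group means, with 1 of 18 pairs over 0.1, and 1 of 12 libraries correlated best with its own number.

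Leaving out each library in turn gave 7 to 10 called members in Ep300 knockout, 1 to 2 in Crebbp knockout, 12 to 17 in double knockout, 5 to 11 between the single knockouts, 8 to 11 in double against Ep300 knockout, 14 to 18 in double against Crebbp knockout and 4 to 8 against the sum of both single knockouts. Over all genes it gave 214 to 774 in Crebbp knockout and 1119 to 2861 against the sum. The fit of only the groups compared does not exist for the sum, which uses all 4 groups. Levels under 1 CPM rest on few counts and limit the calls there.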
